A study of Mus musculus with 4 samples.

Results

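The histone genes of the mouse annotation were chosen by symbol. They are the genes on assembled mm10 chromosomes named H1f, H2ac, H2bc, H3c or H4c with a number, together with the H2A variants whose symbols begin H2af, H2ax, H2az, H2aj or H2al, the H3f3 genes and the Macroh2a genes. The rule found 96 genes with 146 annotation rows, each row being 1 transcript model, among 26161 gene symbols with 50703 rows outside the ribosomal DNA contig. For description they were divided into 63 clustered-type genes (H1f1 to H1f6 and every H2ac, H2bc, H3c and H4c gene) and 33 variant genes (all others). The clustered-type genes comprised 6 H1, 17 H2A, 16 H2B, 12 H3 and 12 H4 genes, and the variants comprised 4 H1, 26 H2A and 3 H3 genes.

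The series profiled RNA polymerase I by CUT&Tag, in which an antibody directs a transposase to chromatin around the bound protein, in C64 mouse embryonic stem cells. The 4 libraries fell into 2 groups, namely 2 control libraries without treatment and 2 libraries made after 6 h in 500 nM auxin. Auxin is used to remove proteins that carry an auxin-inducible degron, but no such protein is named in the labels, nor whether replicates were grown separately. The table analysed here is the annotation shared by all 4 libraries, so occupancy of polymerase I at histone genes, library depth and expression were not analysed here, and the values below are fixed coordinates with no replicate error and no test.

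Histones package DNA into nucleosomes, each built from pairs of the core histones H2A, H2B, H3 and H4 and closed by the linker histone H1. Replication-dependent histone genes are switched on in S phase, lack introns, and give mRNAs that end in a conserved stem-loop in place of a poly(A) tail. Replacement variants such as H3.3, H2A.Z and macroH2A are made throughout the cell cycle from ordinary spliced or polyadenylated transcripts and are placed into chromatin outside replication.

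The octamer ATTTGCAT is the element that the POU factor Oct-1 (Pou2f1) is known to bind in H2B promoters. It was present in 7 of the 14 clustered-type H2B genes with a promoter window, and those 7 stretches are shown because, among the clustered-type families, it was found in H2B and H2A windows and in no H1, H3 or H4 window. Each is 30 bases of the RefSeq promoter table (GRCm38.p6), read 5′ to 3′ in the direction of the H2B gene, with the octamer in capitals.

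H2bc1 (chr13:23934293-23934322, minus strand): ttATTTGCATgcacccagcacttactgtcc
H2bc3 (chr13:23746642-23746671, plus strand): ttATTTGCATaaagcctttgaggccattat
H2bc6 (chr13:23586010-23586039, minus strand): taATTTGCATaagactgcctacaaataagg
H2bc8 (chr13:23571339-23571368, plus strand): ttATTTGCATagaacctctataaaatggca
H2bc12 (chr13:22035789-22035818, plus strand): ttATTTGCATacgaagttctagataaagag
H2bc14 (chr13:21722014-21722043, plus strand): tctctATTTGCATaacagcgtgtatatagg
H2bc18 (chr3:96269650-96269679, plus strand): tcATTTGCATacaagctctataagtaccgc

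The 6 clustered-type H1 genes showed a different shared stretch, a CCAAT followed by an A/T-rich run, at a similar distance from the annotated start in H1f1 to H1f5 and somewhat farther in H1f6. CCAAT at that distance was also found in some H3 windows, as given below. These 30-base windows come from the same table, are read in the gene's direction and have CCAAT in capitals.

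H1f1 (chr13:23763610-23763639, plus strand): caCCAATcacagcacagcactgctctataa
H1f2 (chr13:23738751-23738780, plus strand): caCCAATcagcgcgcgcctgcgctctatat
H1f3 (chr13:23554979-23555008, plus strand): aaCCAATcaccacgcagcttctctctatat
H1f4 (chr13:23622583-23622612, minus strand): caCCAATcacggcgcagctccgccctatat
H1f5 (chr13:21780651-21780680, minus strand): caCCAATcacagcccagcaccggcttatat
H1f6 (chr13:23695744-23695773, plus strand): caCCAATcacagcgcgccctgctctatata

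All 63 clustered-type genes lay in 3 autosomal clusters, 53 on chromosome 13 and 10 on chromosome 3. The class was set by symbol and its name presumes clustering, so this describes where the genes lay and tests nothing. Histone symbols outside the rule, some of them on chromosome 11, were not counted. A cluster was a chain of at least 3 histone genes with no gap between neighbours above 500 kb. Chromosome 13 held 55 of the 96 histone genes (57.3%), counting the variant gene Macroh2a1 and the pseudogene H2af-ps2, which lay far outside both of its clusters. The X chromosome held 15 histone genes, chromosome 3 held 11, chromosomes 6 and 15 held 3 each, and chromosomes 2, 11 and Y held 2 each. Chromosomes 1, 9 and 10 held 1 each, namely H3f3a, H2ax and Macroh2a2. In all, 19 histone genes lay outside any cluster, and each of them was in the variant class, which was also set by symbol.

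The first chromosome 13 cluster ran from H2bc13 to H2bc11 (chr13:21715711-22043658), spanned 328 kb and held 22 histone genes. It contained 7 H2A, 7 H2B, 5 H4, 2 H3 and 1 H1 gene (H1f5), 10 on the plus strand and 12 on the minus strand. Along the cluster they fell into 12 runs of same-strand genes. Histone gene loci, introns included, covered 4.63% of its length, and the median gap between neighbours was 2289 bases. The widest gap, 201646 bases, separated H2ac24 from H2ac12 and left a group of 17 genes and a group of 5. Other symbols inside were H4bc24, Mir1983, Pom121l2, Prss16 and Zfp184.

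The second chromosome 13 cluster ran from H4c8 to H2ac1 (chr13:23531044-23934913), spanned 404 kb and held 31 histone genes. It contained 7 H2B, 7 H3, 6 H2A, 6 H4 and 5 H1 genes, so 5 of the 6 clustered-type H1 genes were here. The 18 plus-strand and 13 minus-strand genes fell into 19 strand runs, with a median gap of 2146 bases. H2bc1 and H2ac1 at its far end stood 169312 bases away from H1f1, the nearest of the other 29. The cluster also enclosed Hfe, a regulator of iron uptake, Trim38 and the transporter genes Slc17a1, Slc17a2, Slc17a3 and Slc17a4. The 2 chromosome 13 clusters were separated by 1487385 bases holding 45 other symbols, 36 of them vomeronasal receptor genes of the Vmn1r family.

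The chromosome 3 cluster ran from H2ac21 to H2bc18 (chr3:96219885-96270192) and packed 10 histone genes into 50.3 kb with no other symbol inside. It held 4 H2A, 3 H3, 2 H2B and 1 H4 gene and no H1 gene. Its median gap was 651 bases, and its density of 19.9 genes per 100 kb compared with 6.71 and 7.68 in the chromosome 13 clusters. The shortest distance between any neighbouring histone genes was here, with 58 bases between the facing 3′ ends of H2ac21 and H2ac20.

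**Figure D1:**
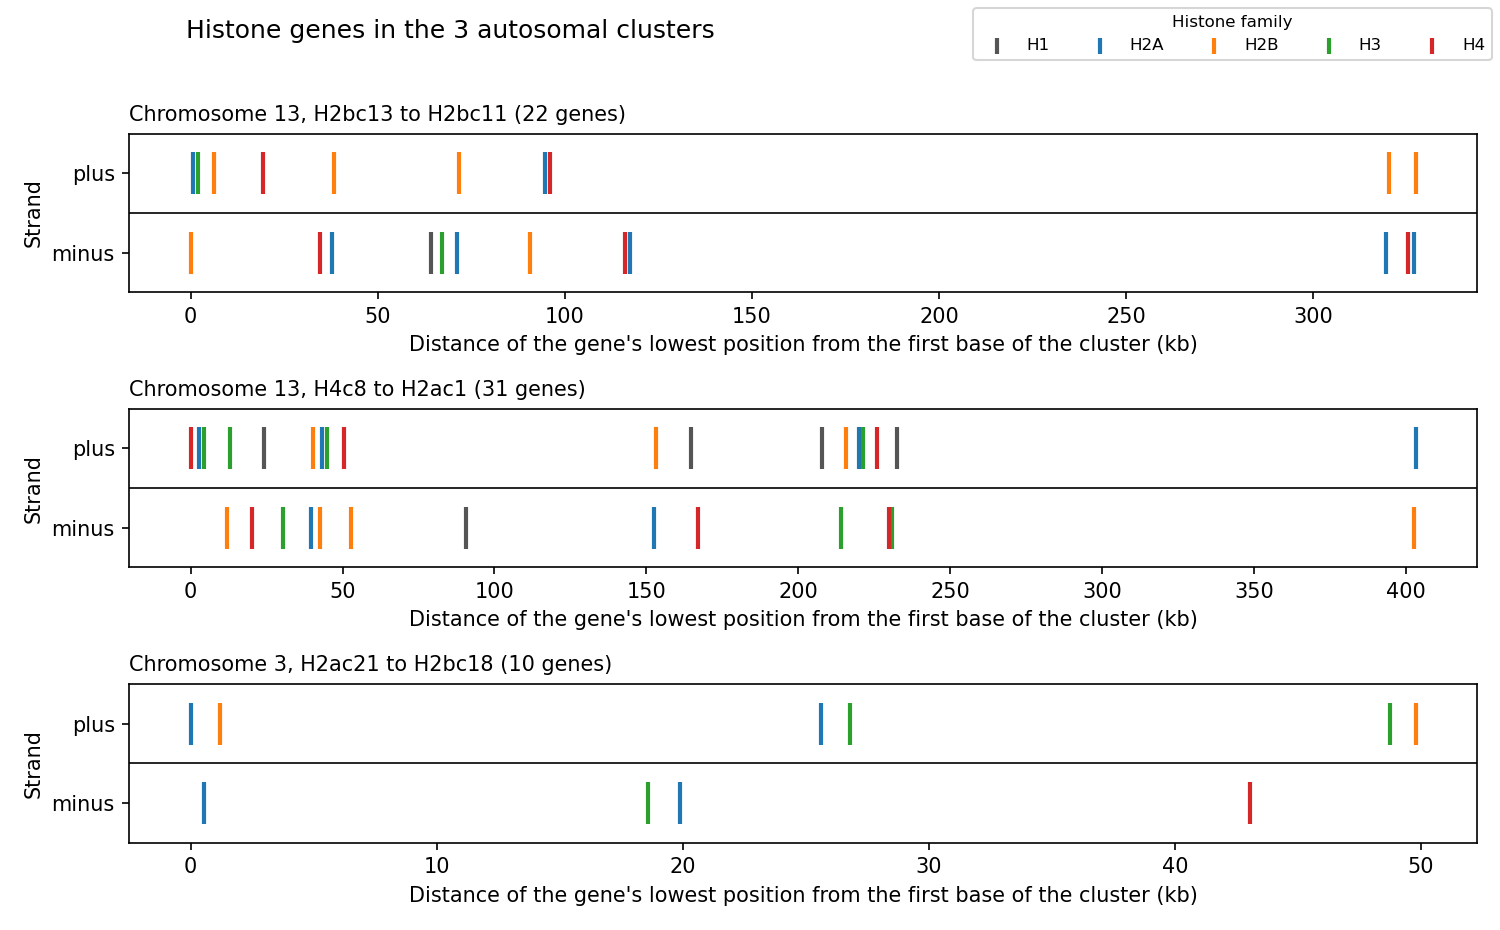
Position of each clustered-type gene as the distance of its lowest coordinate from the cluster's first base (x axis, kb), with plus-strand genes above and minus-strand genes below the line and families in colours. The 22, 31 and 10 genes lie on both strands in all 3 clusters, and wide gaps set off the last 5 genes of the first cluster and the last 2 of the second.

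The 2 X-linked clusters held only H2al genes, which encode short H2A variants known from spermatids. In the array from H2al1a to H2al1j (chrX:11299257-11328151), 10 genes lay on the plus strand within 28.9 kb, the densest of the 5 clusters at 34.6 genes per 100 kb. The distance from 1 coding start to the next was nearly constant. Over the 9 intervals it ran from 3163 to 3169 bases, with a median of 3167. The looser X cluster from H2al1m to H2al3 (chrX:9283764-9850252) spread 4 genes over 566 kb, and its span also took in Cybb, Dynlt3, H2ap and Xk. All 525 bases of H2al1m lay within the locus of Xk, on the same strand. Both clusters contrasted with the autosomal ones in holding a single histone family.

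Divergent neighbours, which sit back to back and are transcribed away from each other, had the shortest median distance in the autosomal clusters. There were 18 divergent neighbours with a median of 243.5 bases between them, 17 convergent neighbours with a median of 6331, and 25 same-strand neighbours with a median of 2289. H2A with H2B made up 11 of the 18 divergent neighbours, none of the 17 convergent ones and 1 of the 25 same-strand ones. These 11 lay 163 to 280 bases apart, and the other divergent neighbours lay 607 to 40348 bases apart. The short divergent median thus came from the H2A-H2B neighbours. H2A followed by or preceded by H3 (8) and H4 (5) was the commonest combination among same-strand neighbours.

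A divergent H2A-H2B pair was counted where an H2A and an H2B gene were neighbours among all gene loci, pointed away from each other and had at most 1000 bases between their 5′ ends. There were 11 such pairs, taking in 11 of 17 clustered-type H2A genes and 11 of 16 H2B genes, or 66.7% of these 33 genes. Among all 26129 gene loci, 10.2% (2672) were in a divergent pair under the same limit, there with a partner of any kind. With any partner, 28 of the 96 histone genes were in a divergent pair. The distance between the 5′ ends ran from 163 to 280 bases with a median of 191, while the 1339 divergent pairs among all loci had a median of 148.

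The shortest pair was H2ac15/H2bc15, with 163 bases between the gene starts (chr13:21753913-21754075). H2bc23/H2ac23 followed with 167 bases (chr13:21810200-21810366), and H2bc7/H2ac7 with 173 bases (chr13:23574208-23574380). The longest was H2bc1/H2ac1 with 280 bases (chr13:23934157-23934436). H2ac11/H2bc11 had 248 bases (chr13:22042950-22043197), and H2ac22/H2bc22 and H2ac6/H2bc4 tied at 239. The remaining distances were 177 bases for H2ac12/H2bc12, 179 for H2ac8/H2bc8, 191 for H2ac20/H2bc21 and 228 for H2bc13/H2ac13. H2ac20/H2bc21 was the sole pair on chromosome 3, and the other 10 were on chromosome 13. In 7 pairs H2A was on the minus strand and in 4 H2B was.

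Measured between the coding starts, the pairs were more alike. The distance then ran from 278 bases (H2bc13/H2ac13) to 334 bases (H2ac12/H2bc12), with a median of 302. H2bc1, a testis form of H2B, had no annotated 5′ UTR, so its pair was longest between gene starts yet near the median between coding starts at 305 bases. H2ac15/H2bc15 and H2bc23/H2ac23, the closest by gene start, were both 295 bases apart by coding start.

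**Figure D2:**
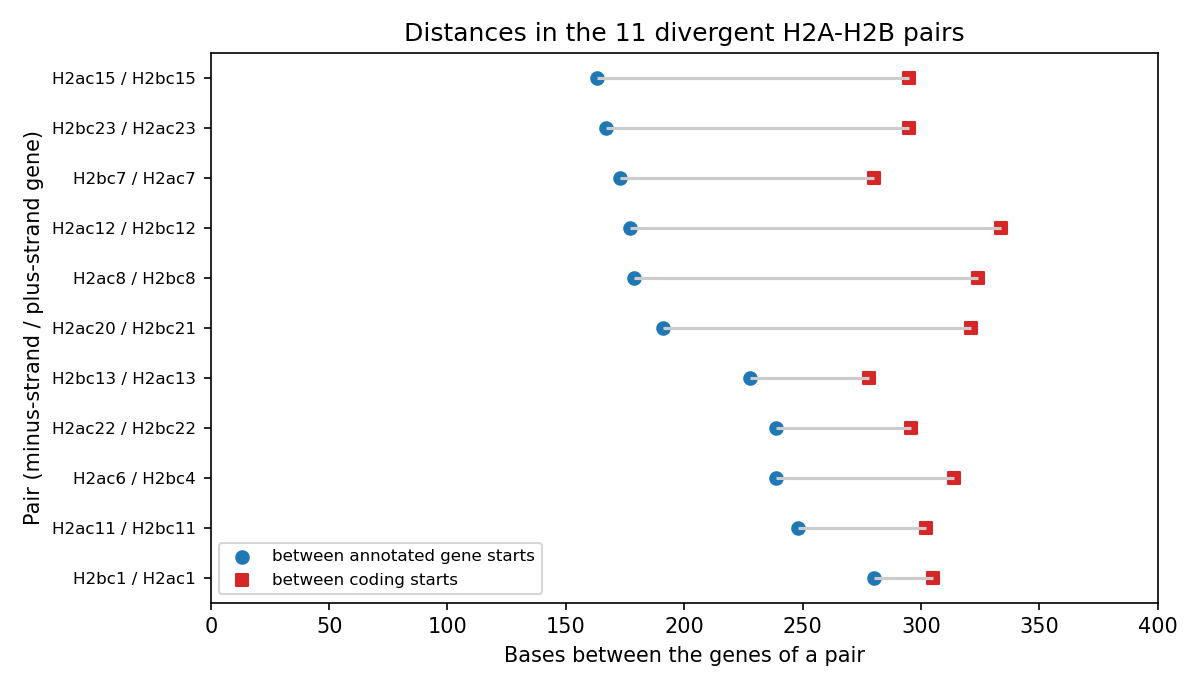
Bases between the annotated gene starts (blue circles) and between the coding starts (red squares) of each of the 11 divergent H2A-H2B pairs (x axis, bases). Gene starts lie 163 to 280 bases apart and coding starts 278 to 334 bases apart.

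Outside these pairs were 6 H2A and 5 H2B genes. H2ac18 and H2ac19 pointed away from each other across 5122 bases. H2ac10, H2ac21 and H2bc18 had neither a divergent partner within the limit nor a reference pseudogene in that place. H2ac4 and H2bc3 were on the same strand, 3864 bases apart. The place of a partner of H2bc14 was taken in RefSeq by the pseudogene H2ac14, 242 bases ahead of it, and that of H2bc3 by the pseudogene H2ac5-ps, 219 bases ahead, and neither pseudogene had a row in the annotation. H2bc9 was divergent from the H3 gene H3c7 across 607 bases, the only other divergent pair within 1000 bases among the 96 genes. H2bc6 had H1f4 ahead of it on the same strand.

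The remaining unpaired gene, H2ac24, was divergent at 267 bases from H4bc24 (chr13:21833743-21837530, plus strand), a gene named here after its values were seen and left out by the symbol rule. Its symbol places it with H4, but its single-exon rows had 126 codons, the length of H2B, where every H4c gene had 103, and RefSeq lists an H2B name among its synonyms. Its exons of 405 and 1716 bases, 28-base 5′ UTR and 3788-base span were those of H2bc23. H4bc24, H2ac24 and H4c18 mirrored H2bc23, H2ac23 and H4c17 in order, strand and spacing, and their sequences were not compared. The positions of successive coding starts differed by 296 and 1317 bases in both groups. H2ac23 was annotated with a 100-base 5′ UTR and H2ac24 with none, which is the whole difference between the 167 and 267 bases at the 2 pairs. On chromosome 3, H2ac19/H3c15 and H2ac18/H3c14 also mirrored each other, with coding-start positions 1309 and 1305 bases apart.

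In single-exon rows the coding length was nearly fixed within each core family and differed between families. All 12 H4 genes had 103 codons and all 12 H3 genes had 136, stop codons not counted. Of the H2B genes 15 had 126 codons, and H2bc1 had 127. Of the H2A genes 14 had 130, H2ac1 and H2ac20 had 129, and H2ac12 had 128. The H1 genes were longer and each had its own length, from 209 codons in H1f6 to 223 in H1f5. RefSeq lists 8 H3 genes (H3c2, H3c3, H3c4, H3c6, H3c7, H3c13, H3c14 and H3c15) under shared synonyms, another 4 H3 genes (H3c1, H3c8, H3c10 and H3c11) in a second such group, and 10 of the H4 genes in another. Of the H2B genes, 7 fell into a group of 4 (H2bc7, H2bc11, H2bc13 and H2bc15) and a group of 3 (H2bc4, H2bc6 and H2bc8). Reads from near-identical copies cannot always be assigned to 1 gene, and how far these genes are identical was not tested.

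Nearly all clustered-type genes were a single exon. All annotated rows had 1 exon in 59 of 63 genes (93.7%), against 10.2% of all coding genes (2133 of 20992). All H1, H2A, H3 and H4 members were among the 59, and each of the 4 exceptions was an H2B gene that also had a single-exon row. So all 63 had at least 1 intronless row.

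The 4 exceptions differed in where the second exon lay. H2bc4 (chr13:23684199-23692480) had a 423-base first exon holding the whole coding part, an intron of 7554 bases and a 305-base noncoding exon downstream. H2bc22 (chr13:21787488-21789213) had exons of 404 and 190 bases around an intron of 1132 bases, and H2bc23 (chr13:21806412-21810199) had exons of 405 and 1716 bases around an intron of 1667 bases. In these last 2 the splice fell inside the coding part and exchanged its end, giving 138 and 134 codons in place of 126. H2bc6 (chr13:23583670-23621124) instead had a noncoding exon upstream, of 179 or 209 bases, joined across introns of 34945 or 34949 bases. Its span of 37455 bases was the longest of the clustered-type genes and ended 652 bases short of H1f4.

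The 3′ UTR of the clustered-type genes was short and narrow in range. Taking the longest over each gene's rows, the median was 52 bases, against 720 over all coding genes. It was at most 100 bases in 57 of 63 genes (90.5%), against 13.8% of all coding genes (2906 of 20992). Some of the genes in that background have no annotated 3′ UTR at all, and those with 1 to 100 bases made up 6.9% (1449 of 20992). A length between 40 and 65 bases was found in 53 of 63 clustered-type genes and in 494 of 20992 coding genes. This band was not in the plan and encloses the median of each clustered-type family, so the contrast favours these genes. Over all 2133 single-exon coding genes the median 3′ UTR was 0, since most had none annotated, and 68.6% had at most 100 bases, against 96.6% of the 59 single-exon clustered-type genes. The 977 single-exon genes with an annotated 3′ UTR had a median of 278 bases, and the 59 had a median of 52. The 5′ UTR was also shorter, with a median of 40 bases against 158.

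The family medians lay close together, at 51.5 bases in H1, 57 in H2A, 51 in H2B, 52 in H3 and 53 in H4. The shortest 3′ UTR belonged to H2ac20 at 42 bases. H1f2 and H2ac12 followed at 44 bases, and H2ac13, H3c3 and H3c11 tied at 45. The H4 genes kept to 46 to 59 bases and the H2A genes to 42 to 79.

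Among the clustered-type families only H2B and H3 had members with a 3′ UTR above 100 bases. H2bc21 had 2192 bases, in its single row of 1 exon. H2bc6 reached 1906 bases, H2bc23 reached 1688, H2bc4 reached 314 and H2bc22 reached 150, but these 4 also had single-exon rows with 50, 50, 55 and 48 bases. H3c6 had 480 bases in its single row. Thus H2bc21 and H3c6 were the 2 clustered-type genes with no short 3′ UTR, and 61 had at least 1 row with a short one. The longest 5′ UTRs were 433 bases in H3c7, 219 in H2bc6 (with its upstream exon), 201 in H3c14 and 186 in H3c15, of which the H3 genes were looked up after their values were seen.

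**Figure D3:**
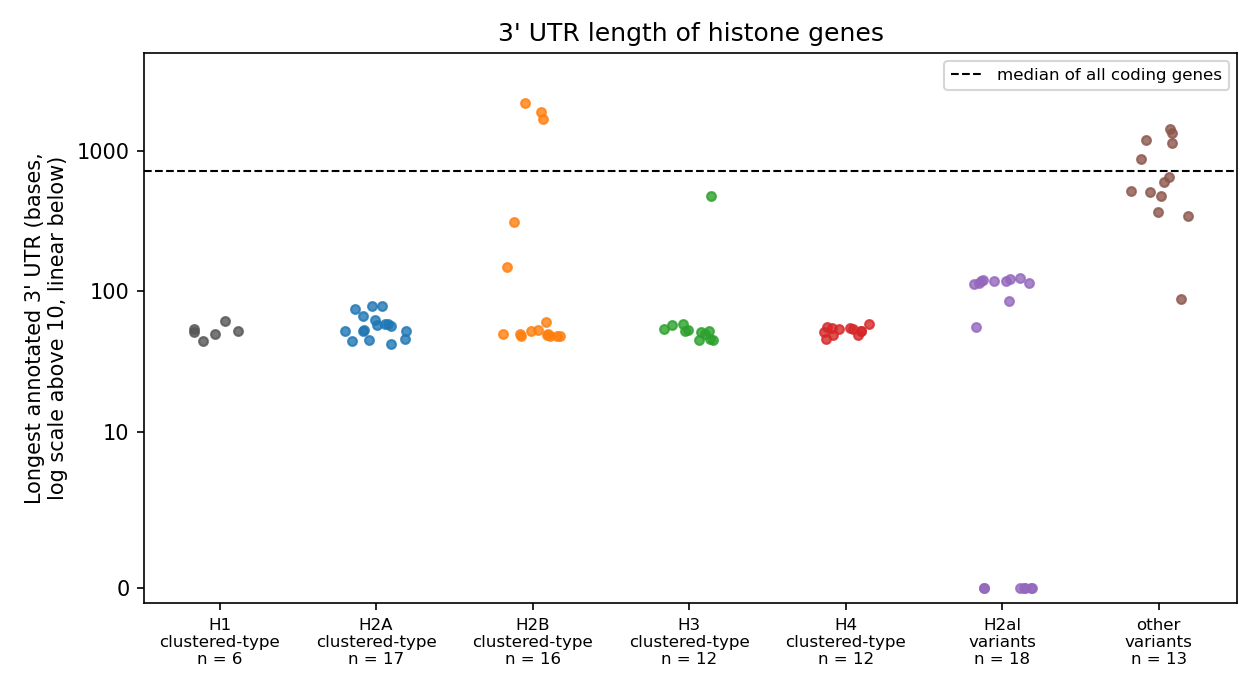
Longest annotated 3′ UTR of each coding histone gene (y axis, bases, log scale above 10 and linear below), grouped by family, with the median of all coding genes (720 bases) as a dashed line. The clustered-type families sit near 50 bases except for 5 H2B genes and 1 H3 gene above 100, and the variants outside the H2al group run from 88 to 1446 bases.

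The 33 variant genes were mixed in structure, with 7 spliced genes, 18 short H2al genes, 6 other single-exon coding genes and 2 pseudogenes. Introns were present in every coding row of 7 variants, namely H3f3a, H3f3b, H2az1, H2az2, Macroh2a1, Macroh2a2 and H1f8. The 3′ UTR of the variants other than H2al had a median of 605 bases over their 13 coding genes, near the 720 of all coding genes.

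H3f3a (chr1:180802560-180813605, minus strand) and H3f3b (chr11:116021961-116024504, minus strand) both encode H3.3, the replication-independent H3. Both had 4 exons and 136 codons, the length of the clustered H3 genes. Their 3 coding exons held the same 128, 154 and 129 coding bases, while their introns totalled 551 bases in H3f3b and 9960 in H3f3a, 18.1 times as many. Their 3′ UTRs were 517 and 1446 bases. H3f3c (chr2:119665116-119666152, minus strand) had the same 136 codons in a single exon of 1037 bases with a 510-base 3′ UTR.

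H2az1 (chr3:137864487-137866922, plus strand) and H2az2 (chr11:6427226-6444443, minus strand) encode H2A.Z, which marks the nucleosomes at active promoters. Both had 5 exons with coding parts of 3, 78, 114, 130 and 62 bases and 128 codons, so their first coding exon holds the start codon alone. Intron bases were 1367 in H2az1 and 15582 in H2az2, 11.4 times as many. Each had a second row with fewer codons. In H2az1 the 130-base exon was shortened to 61 bases, leaving 105 codons, and in H2az2 the 114-base exon was absent, leaving 90.

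Macroh2a1 (chr13:56073622-56135550, minus strand) and Macroh2a2 (chr10:61738647-61783864, minus strand) encode macroH2A, an H2A joined to a large macro domain and known for its abundance on the inactive X chromosome. Both had 9 exons, and all 8 coding exons could be matched at the same coding sizes of 172, 107, 198, 111, 100, 90, 175 and 166 bases. Intron bases were 59967 and 43308. Macroh2a1 had 4 rows, which combined exon 5 of 108 or 111 bases with exon 6 of 100 or 91 bases. The 100-base and 91-base exons lay at different places, 6266 and 7781 bases after exon 5, and the coding part ran from 368 to 372 codons. Macroh2a2 had 1 row, of 372 codons.

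**Figure D4:**
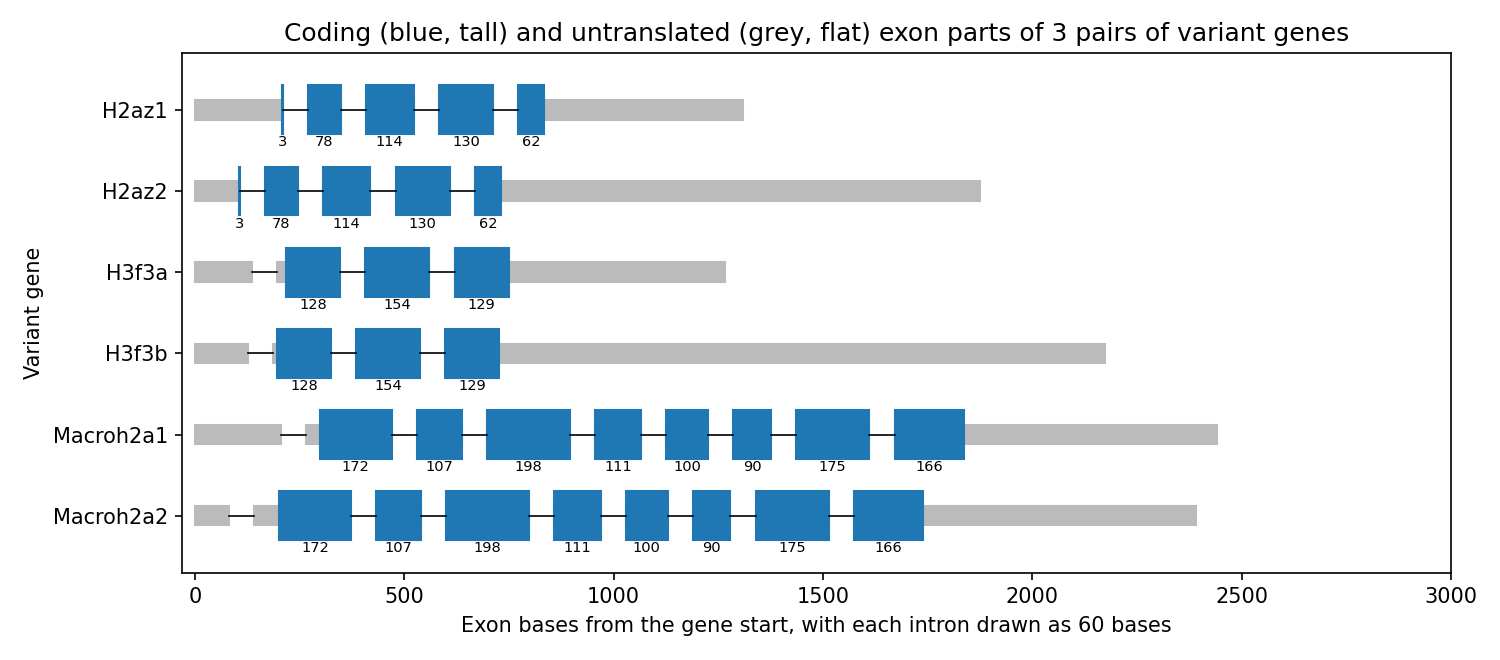
Exon structure of the H2az, H3f3 and Macroh2a gene pairs along the transcript (x axis, exon bases from the gene start, each intron drawn as 60 bases), with coding parts tall and blue and untranslated parts flat and grey. The coding parts match in size within each pair, with 5 of 5, 3 of 3 and 8 of 8 equal, and the untranslated ends do not.

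The linker variants differed widely in structure. H1f8 (chr6:115944931-115950242, plus strand), the oocyte H1, had 5 exons, and rows with an exon 4 of 60 or 56 bases gave 246 or 304 codons. H1f0 (chr15:79028212-79030504, plus strand), a linker histone of non-dividing cells, was a single exon of 2293 bases with a 510-base 5′ UTR, a 1198-base 3′ UTR and 194 codons. H1f10 (chr6:87980421-87981482, minus strand) was a single exon with 188 codons and a 369-base 3′ UTR. H1f7 (chr15:98255982-98257307, minus strand), a testis H1, had the longest coding part of the single-exon genes at 398 codons and an 88-base 3′ UTR, the shortest of the variants outside H2al.

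H2ax (chr9:44334715-44336077, plus strand), whose product is phosphorylated at DNA breaks, was a single exon with 143 codons and an 884-base 3′ UTR. H2aj (chr6:136808248-136810074, plus strand) was a single exon with 129 codons and a 1345-base 3′ UTR. Both were intronless like the clustered H2A genes and many times longer at the 3′ end than the 42 to 79 bases found there. H2af-ps2 and Macroh2a3 had no coding part and are transcribed pseudogenes in RefSeq.

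All 18 H2al genes were single-exon, with 105 to 128 codons. Besides the 14 in the X clusters, H2al1n lay alone on the X chromosome, H2al2a on chromosome 2, and H2al2b and H2al2c on the Y chromosome. The 3′ UTR had a median of 98.5 bases, with genes lacking an annotated one counted as 0. Where annotated, it ran from 56 bases in H2al1o to 124 in H2al1k. H2al1c, H2al1d, H2al1f, H2al1i, H2al1j, H2al2b and H2al2c were annotated with no UTR at either end. H2al1c, H2al1d, H2al1f and H2al1i each stood in the annotation 7 times with identical coordinates, and 16 histone genes in all had such repeated rows. A value summed or averaged over rows would count these genes more than once.

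Promoter letters were read in the RefSeq windows from 250 bases before to 50 after a start, which were found for 88 of the 96 genes (58 clustered-type and 30 variant) among 32851 windows. H2af-ps2, H2ax, H2bc4, H2bc21, H3c1, H3c7, H4c14 and Macroh2a3 had none. Each of the 88 windows was placed at the first base of a row of its gene. The motifs searched, on both strands and with exact letters, were CCAAT (the CAAT box, known to be bound by NF-Y), TATAAA (the TATA box), ATTTGCAT (the octamer), GGGCGG (the GC box) and CACGTG (the E box). No histone window had overlapping matches of different motifs. A match describes the letters and does not show binding.

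CCAAT was found in 86.2% of clustered-type windows (50 of 58) against 37.4% of all windows, and TATAAA in 58.6% (34 of 58) against 13.6%. The families were not alike in CCAAT. It was present in 6 of 6 H1, 17 of 17 H2A, 14 of 14 H2B and 10 of 10 H3 windows, but in 3 of 11 H4 windows. All 17 H2A and all 14 H2B windows held at least 2 matches, and paired genes share much of their windows. H4 had the highest share of TATAAA, in 8 of 11 windows, and of GGGCGG, also in 8 of 11, whereas GGGCGG was in 2 of 14 H2B windows. These shares count a match anywhere in the window. TATAAA in the gene's direction started 40 to 20 bases before the annotated start in 4 of 4 H1 and 4 of 10 H2A matches. The same held for 0 of 3 H2B, 2 of 5 H3 and 1 of 8 H4 matches. A further 4 H2B matches were against the gene's direction, starting at positions -212 to -190. Over all clustered-type windows GGGCGG was near the general level, at 39.7% against 35.7%. CACGTG was in 0 of 58 clustered-type windows and in 7.15% of all windows.

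The H1 windows printed above had the first base of CCAAT at positions -56 (H1f1), -54 (H1f2), -51 (H1f3), -52 (H1f4), -53 (H1f5) and -65 (H1f6), counted from the annotated start. TATAAA was present in the gene's direction in 4 of the 6, starting at positions -33 to -26. CCAAT at these positions was not particular to H1. In the gene's direction it also started at -51 in H3c2, -52 in H3c3, -53 in H3c10, -54 in H3c6 and -56 in H3c4 and H3c11. H3c8, H3c13, H3c14 and H3c15 had no such match from -56 to -51. H3c10 and H3c2 also had TATAAA, starting at -31 and -29.

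The octamer was found in 22.4% of clustered-type windows (13 of 58) against 1.74% of all windows. It occurred in 7 of 14 H2B and 6 of 17 H2A windows and in no H1, H3 or H4 window. All 7 H2B windows held it in the direction of the gene, and all 6 H2A windows held it against the direction of the gene. The 13 matches were 10 distinct sites, since 3 of them lay in the windows of both members of a pair (H2ac1/H2bc1, H2ac8/H2bc8 and H2ac12/H2bc12). From the first base of the octamer to the coding start of the H2B gene it faced, the distance ran from 79 bases in H2bc14 to 164 in H2bc1, with a median of 96 over 9 H2B genes. H2bc4 and H2bc21 are among these 9 through the windows of their H2A partners. In H2bc21 the octamer began 1 base after the annotated gene start. The remaining site, in the H2ac4 window, faced no H2B gene nearby. Among the variants only H3f3b had an octamer.

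The interval between the 2 gene starts could be read whole for all 11 divergent pairs. CCAAT was in all 11 intervals, 2 to 5 times each with a median of 3. TATAAA was in 5, the octamer in 4 and GGGCGG in none. The intervals had a GC content of 38.5% to 47.9%, with a median of 42.7%, and the 300-base windows of clustered-type genes had a median of 45.3% against 52.7% over all windows. The 18 H2al windows had no CCAAT, octamer or GGGCGG match. H2al genes annotated without a 5′ UTR had windows placed at the coding start. CCAAT was in 7 of 30 variant windows and GGGCGG also in 7 of 30, all of them outside the H2al genes. The pooled variant shares are therefore lowered by the H2al windows.

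**Figure D5:**
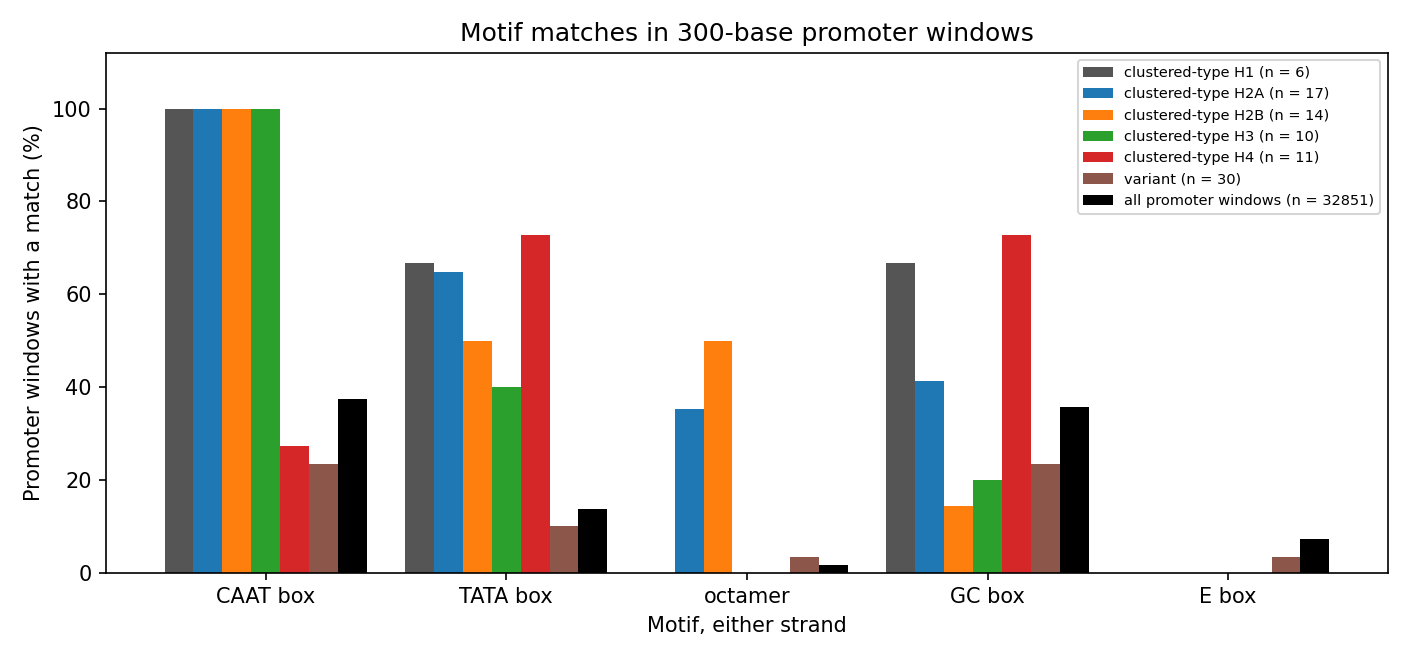
Share of 300-base promoter windows holding each motif on either strand (y axis, percent), for the 5 clustered-type families, the variants and all 32851 windows. The variant bars pool 30 windows, 18 of them of H2al genes, which had no CAAT box or GC box match. The CAAT box is at 100% in H1, H2A, H2B and H3 and at 27.3% in H4, and among the clustered-type families the octamer appears in H2A (35.3%) and H2B (7 of 14) and in no H1, H3 or H4 window.

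The genes that serve histone supply lay outside the cluster spans and were mostly spliced. Being spliced is the general state, since 10.2% of all coding genes were single-exon. All 10 listed genes of histone mRNA 3′ end processing had a row. Slbp, which binds the stem-loop, had 7 or 8 exons over 12520 bases on chromosome 5, Lsm10 and Lsm11, proteins of the U7 particle, had 2 and 4, and Zfp473 had 5. Rnu7, the U7 small nuclear RNA that pairs with histone pre-mRNA, was the sole single-exon gene of this group, at 62 bases (chr6:124741225-124741286, minus strand). All 6 listed genes of transcription in the histone locus body had rows, with 18 exons in Npat, the coactivator of histone genes, 11 in Casp8ap2, 7 in Coil and 16 or 17 in Pou2f1. All 15 listed chaperone and assembly genes had rows and introns, with 13 to 16 exons in Nasp, 4 each in Asf1a and Asf1b and 14 in Chaf1a.

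Of 9 further histone symbols outside the rule, 8 had a row and H3f5 had none. Cenpa, the centromeric H3, had 4 to 7 exons, and the other 7 were single-exon. Of these 7, H2bu2 (52 bases), H4f16 (75), H3f4 (51), H2bl1 (55) and Hils1 (63) had a 3′ UTR of 1 to 100 bases, H2ap had 116 bases and H2ab1 had none annotated. H2bu2 (chr11:58948911-58949372, plus strand) and H3f4 (chr11:58961711-58962273, plus strand) lay close together. Between them were H2bu1-ps (chr11:58954048-58954512, minus strand) and H2aw (chr11:58954685-58955192, plus strand), 2 symbols named after their values were seen. H2aw had 130 codons and a 62-base 3′ UTR. The cluster and pair rules were not applied to these symbols. Hils1 lay elsewhere on chromosome 11 (chr11:94967593-94968456). H4f16 lay on chromosome 6, H2bl1 on chromosome 13 outside the clusters, and H2ab1 and H2ap on the X chromosome.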

How the data were processed

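The annotation is a 12-column BED table of 50727 rows that the authors deposited for the whole series. The deposited score column was 0 in each row, and no column names a library, so the planned tests of polymerase I occupancy between auxin and control were not run. FastQC, Bowtie2, deepTools and bedtools were used with build mm10, per the submitters' processing notes. For the tools' versions and for the making of the annotation, nothing is given in the sources used here. Position, exon number, exon size and exon start columns, as deposited by the authors, are in bases and are printed counted from 1. UTRs were taken from the exons outside the coding interval, as the longest over a gene's rows. A locus joined rows of a symbol that overlapped by 1 or more bases on the same strand. All 96 symbols matched RefSeq (GRCm38.p6), 96 lay inside the reference span and 91 had its exact ends. H2bc6 had 2 promoter windows, and that at the start nearer its coding part was used. Work was done with Python 3.11.15, pandas 2.3.3, numpy 2.4.6 and matplotlib 3.10.9, and the routines were tested on simulated data. The structure routine was wrong in 0 of 400 transcripts, but no simulated UTR filled an exon, so noncoding exons were not covered. In simulations of 200 pairs and 50 clusters only the totals made and found were compared, and they were equal. Named genes were the first and last of each cluster, the 3 shortest and 3 longest pairs, the 5 longest and 5 shortest 3′ UTRs, clustered-type genes with a spliced row, every variant, and up to 4 genes of each supply role. Members, lists and motifs were chosen with earlier results of these data known, and other genes were named after their values were seen. Alternatives were other gaps for clusters and pairs, other ways of choosing rows, all contigs, and further histone symbols.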

Additional observations from a re-analysis of the deposited data

How the results depend on the processing

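The count of 5 clusters fell to 3 with gaps of up to 2 Mb allowed, because the chromosome 13 clusters (53 genes) and the X clusters (14 genes) then joined. It was again 5 at 100 kb, but with the 22-gene cluster divided into 17 and 5 genes, H2bc1 and H2ac1 dropped from the second, and the 4-gene X cluster lost. The 96 genes were the same number on all contigs and 104 with further histone symbols. The 11 pairs were 11 at limits of 400 and 5000 bases and among histone loci only, and 12 with H4bc24 counted as an H2B gene, a choice made after seeing the data. Single-exon genes numbered 59, or 63 counting any intronless row. The median 3′ UTR was 52 bases under each choice of rows tried (shortest, every row, and, added after seeing the data, single-exon rows), and the variants with introns numbered 7 either way. No paired analysis was possible because no library has values of its own here. For the same reason the other settings meant for polymerase I occupancy (another normalization, no filter, a replicate block, leaving out each replicate) were not run. Lengths rest on the annotated ends: a gene annotated from its coding start only, such as H2bc1, H2ac24 or H2al1c, has a UTR of 0 that says nothing of its transcript, and depth is unknown.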
